A study of Mus musculus with 20 samples.

Results

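Brain endothelial cells made up 212 of the 21832 cell barcodes kept from 3 scRNA-seq libraries of the mouse dentate gyrus. They were chosen by 5 endothelial genes: Cldn5, the main tight junction claudin of brain vessels, Pecam1, an adhesion receptor between endothelial cells, Flt1, a VEGF receptor, Cdh5, which encodes VE-cadherin, and Ly6c1, a surface protein of brain capillaries. A barcode counted as endothelial when these genes summed to at least 8 UMIs (unique molecular identifiers, 1 for each captured transcript molecule), at least 3 of the 5 were detected, and the smooth muscle genes Acta2, Tagln and Myh11 summed to at most 5 UMIs. By this rule 12 of 13684 barcodes at P5 were endothelial (0.0877%, exact 95% binomial interval 0.0453 to 0.153), 91 of 5351 at 12W (1.70%, 1.37 to 2.08) and 109 of 2797 at 24W (3.90%, 3.21 to 4.68). The intervals do not overlap, but they cover counting error only, and the shares are of cells that had passed a sort for EGFP, not of the tissue. The barcodes listed at P5 started at 1495 UMIs, whereas those at 12W and 24W were kept from 1000 UMIs. At a minimum of 2000 UMIs in each library the shares were 0.0929%, 2.41% and 5.72%. The shares of pericytes and smooth muscle cells, described below, were also lowest at P5, so a low P5 share was not particular to endothelial cells.

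Endothelial cells line every blood vessel, and those of the brain form the blood-brain barrier. Tight junctions between neighbouring cells close the gap that molecules would otherwise pass through, vesicle traffic is kept low, and dedicated carriers bring glucose, amino acids and other nutrients across the cell while efflux pumps return foreign compounds to the blood. Wnt ligands from neural cells, read through beta-catenin, induce and maintain this program. Pericytes, which sit on the outside of capillaries within the shared basement membrane, and smooth muscle cells, which wrap arteries, are the neighbouring cells of the vessel wall and serve here as the comparison.

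The cells came from Nestin-EGFP mice, in which regulatory elements of the Nestin gene drive EGFP, a reporter made to mark neural stem cells and their progeny. EGFP-positive, 7-AAD-negative cells were sorted from the dissociated dentate gyrus of animals 5 days (P5), 12 weeks (12W) and 24 weeks (24W) old, none of them treated, and each age was profiled as 1 library with the 10X Genomics platform. The number of mice in a library is not given in the sources used here. How endothelial cells came to pass this gate was not tested, and age cannot be told apart from library or from the sex of the animals. Comparisons between ages are given with counting error only and without a test, and comparisons between cell types were tested over the 3 libraries.

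The values that chose the cells are a description. The 5 genes summed to between 13 and 207 UMIs in endothelial barcodes at P5 (median 56), between 16 and 97 at 12W (median 43) and between 13 and 220 at 24W (median 49). No member lay between 8 and 11 UMIs, and the highest sum just outside the rule among barcodes with at least 3 of the genes and within the smooth muscle limit was 4 UMIs, in 1 barcode at 12W. A further barcode at P5 had 32 UMIs of these genes but fewer than 3 of them detected. Another at 12W had a sum of 7 UMIs but did not meet both other limits. The limit on smooth muscle genes removed 0, 2 and 3 further barcodes at P5, 12W and 24W. All 5 genes were detected in 6, 26 and 48 barcodes. Cldn5 was detected in all 212, Ly6c1 in 210, Flt1 in 12, 88 and 104, Pecam1 in 9, 64 and 88, and Cdh5 in 9, 38 and 58. Pooled over the barcodes of a library, Cldn5 stood at 4995, 7824 and 9189 CPM (UMIs of the gene per 1000000 UMIs of the pooled barcodes), Flt1 at 632, 1360 and 1597 CPM and Cdh5 at 281, 189 and 249 CPM.

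**Figure D1:**
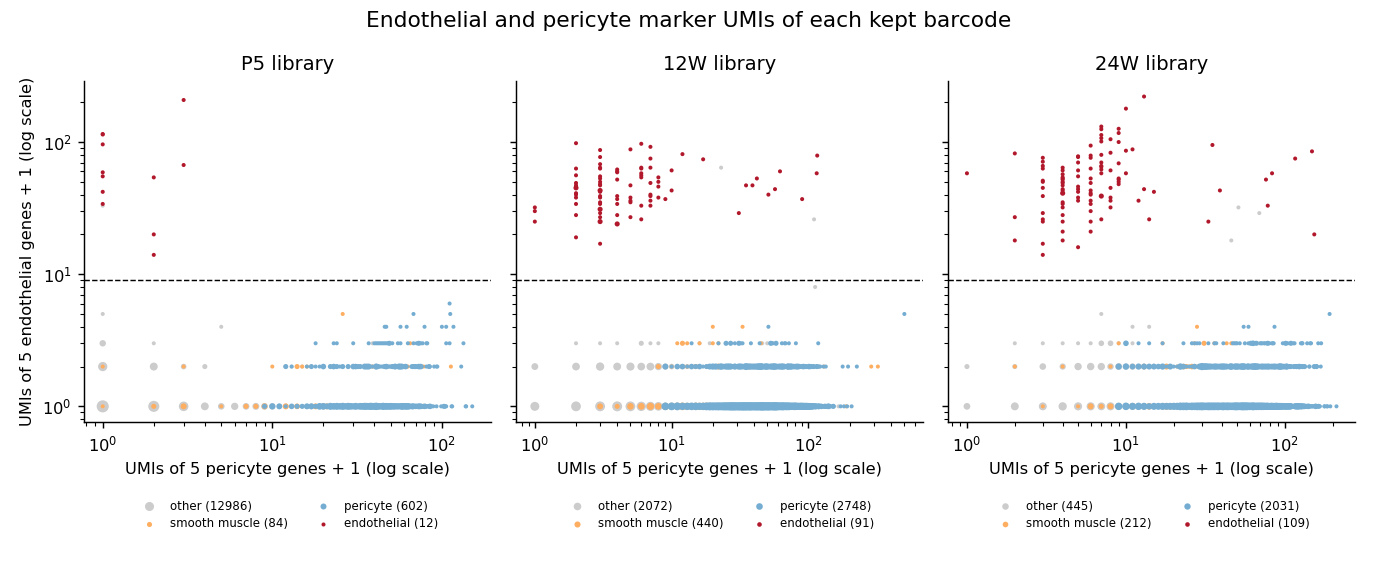
UMIs of the 5 endothelial genes (vertical axis) against UMIs of 5 pericyte genes (horizontal axis) in each kept barcode at P5, 12W and 24W, both plus 1 on a log scale, coloured by class, with the endothelial threshold of 8 UMIs dashed. Endothelial barcodes stand clear of the threshold at each age, and at 12W and 24W some also carry pericyte UMIs.

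Some properties of these barcodes touch the results below. They held 128141, 296276 and 369454 UMIs at P5, 12W and 24W, and 2 of the 12 barcodes at P5 held 49.1% of the P5 UMIs. A count of 0 was set against a floor of 3 UMIs, which corresponded to 23.4, 10.1 and 8.12 CPM. This floor is not the highest level that a count of 0 allows, and bounds computed from it carry no interval. Pericyte RNA was present at 12W and 24W: the summed UMIs of the pericyte genes Vtn, Kcnj8, Abcc9, Higd1b and Atp13a5 had a median of 0, 3 and 5 per endothelial barcode, and 0, 27 and 47 barcodes carried more than 5. Globin UMIs numbered 5, 308 and 18005, of which 99.0% at 12W lay in 2 barcodes and 99.9% at 24W in 4. Xist was counted at 59, 252 and 0 UMIs and Y-linked genes at 13, 0 and 47, so that age and sex are not separable between the libraries. Median depth was 7167, 2757 and 2931 UMIs per endothelial barcode and 5524, 1875 and 2050 per pericyte barcode, scrublet called 0, 2 and 0 endothelial barcodes doublets, and no barcode sequence was endothelial in more than 1 library. The part of these properties in the results was not tested beyond the values given with and without the barcodes concerned.

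To find what sets endothelial cells apart in the vessel wall, UMIs were summed per library over endothelial barcodes, over 5381 pericyte barcodes and over 736 smooth muscle barcodes, and the sums were compared with edgeR's quasi-likelihood test with library as a block (n = 3 libraries; differences below are log2 ± SE, and a gene is called higher or lower at a Benjamini-Hochberg adjusted p under 0.05 over all genes tested). Against pericytes 1185 of 10792 genes were higher in endothelial cells (11.0%) and 1008 were lower (9.34%), and against smooth muscle 751 of 6716 were higher (11.2%) and 801 lower (11.9%). These counts include genes whose direction the class rules set. They are the 5 endothelial genes among the higher, 5 pericyte genes lower than in pericytes and 3 smooth muscle genes lower than in smooth muscle. The median log2 difference over all genes tested was -0.05 and -0.03. Smooth muscle barcodes had no limit on pericyte UMIs, and 59.5%, 65.0% and 73.6% at P5, 12W and 24W met the pericyte thresholds by pericyte genes alone. Pericyte genes outside the pericyte rule summed to 10971, 14922 and 15428 CPM in them and 11248, 16737 and 16601 CPM in pericytes. The 2 comparisons are therefore not separate from each other. The p-values measure how far the difference between cell types varies over 3 libraries that also differ in age. The classes were cut from the same cells by a few of their genes, so that other endothelial genes being higher is not independent evidence of identity, and a gene could pass the count filter through endothelial sums alone, so that the counts per gene group below describe the genes tested.

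Called genes outside the class rules with at least 50 endothelial UMIs at 12W and at 24W were ranked. The 15 of these furthest above pericytes were led by Sox18, a transcription factor of vascular development. Its level was 23.4, 402 and 639 CPM in endothelial cells at P5, 12W and 24W and 0, 0.513 and 0.855 CPM in pericytes, a log2 difference of 9.62 ± 0.36 (edgeR adjusted p = 1.1e-13). Every endothelial library thus lay above every pericyte library, although the P5 endothelial level rests on 3 UMIs. The others were Gimap1, AU021092, Ctla2a, Cyyr1, Sox17, 8430408G22Rik, Abcb1a, Pglyrp1, Icam2, Adgrl4, Hmcn1, Ushbp1, Slco1a4 and Ly6a, with log2 differences between 8.04 and 8.68. Among them are Sox17, a relative of Sox18, the drug efflux pump Abcb1a, the organic anion carrier Slco1a4, the adhesion molecule Icam2 and the adhesion receptor Adgrl4. Ctla2a stood at 968, 1482 and 704 CPM against 1.34, 3.42 and 3.21 CPM in pericytes, and Pglyrp1, a peptidoglycan recognition protein, at 1147, 1526 and 1207 against 2.40, 3.59 and 6.20 CPM. These levels differed less between ages than those of Sox18 did.

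The 15 genes with the lowest fitted differences were all at 0 UMIs in endothelial cells in each library, so only bounds, which give no rank, can be given. They were computed against the floor of 3 UMIs over the 3 libraries (3.78 CPM) and leave out counting error. Lamc3, a laminin chain, was at least 14.0-fold lower than its 53.1 CPM in pericytes. Dhx58os was at least 9.26-fold lower, the phosphatase gene Ptpn22 at least 8.55-fold, Smim1 at least 8.46-fold and the Toll-like receptor gene Tlr12 at least 8.07-fold. The other 10, Ccdc3, Zbtb43, Hebp2, Fhad1, Gipr, RP23-34O23.4, Stk32c, Foxp4, Wdr86 and Akr1b8, had bounds between 3.77-fold and 6.05-fold.

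Genes that mark endothelium in general, and that the selection did not use, were higher throughout. All 23 tested of 24 were higher than in pericytes (median log2 difference 5.76), and all 22 tested were higher than in smooth muscle (6.42). Itm2a, a membrane protein of brain vessels, stood at 1280, 5140 and 5836 CPM against 24.6, 20.4 and 45.3 CPM in pericytes (7.03 ± 0.40, edgeR adjusted p = 3.7e-11). Ly6a, which encodes the surface antigen Sca-1, stood at 258, 2781 and 2617 CPM against 0.534, 8.04 and 17.7 CPM (8.04 ± 0.33, edgeR adjusted p = 4.2e-13). For both genes the lowest endothelial library lay above the highest pericyte library, and the P5 level was the lowest of the 3. The receptor gene Kdr had the opposite order, at 617, 260 and 303 CPM, against at most 5.34 CPM in pericytes. Other members were the receptors Tie1 and Tek of the angiopoietin system (5.23 ± 0.39 and 5.18 ± 0.28), the secreted Egfl7 (5.88 ± 0.32), the sialomucin Cd34 (5.76 ± 0.24) and Ramp2, a partner of the adrenomedullin receptor (5.18 ± 0.25). Esam, Eng and Slc9a3r2, often taken as endothelial markers, were shared with the other wall cells. Esam stood at 241, 636 and 599 CPM in pericytes, Eng at 153, 171 and 193 CPM and Slc9a3r2 at 232, 400 and 391 CPM, and their log2 differences were 1.02 ± 0.21, 1.95 ± 0.20 and 1.37 ± 0.24.

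Single cells detected these genes far more often than pericytes did. With each barcode thinned to 1000 UMIs, Itm2a was detected in 92.5% of adult endothelial barcodes and in 2.95% of adult pericyte barcodes, Ly6a in 92.5% and 1.21%, and Sox18 in 39.0% and 0.0628%. Pericyte barcodes were limited to at most 5 UMIs of the 5 endothelial genes, while endothelial barcodes had no limit on pericyte UMIs. The low shares in pericytes are thus partly set by that limit and do not give a background level.

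**Figure D2:**
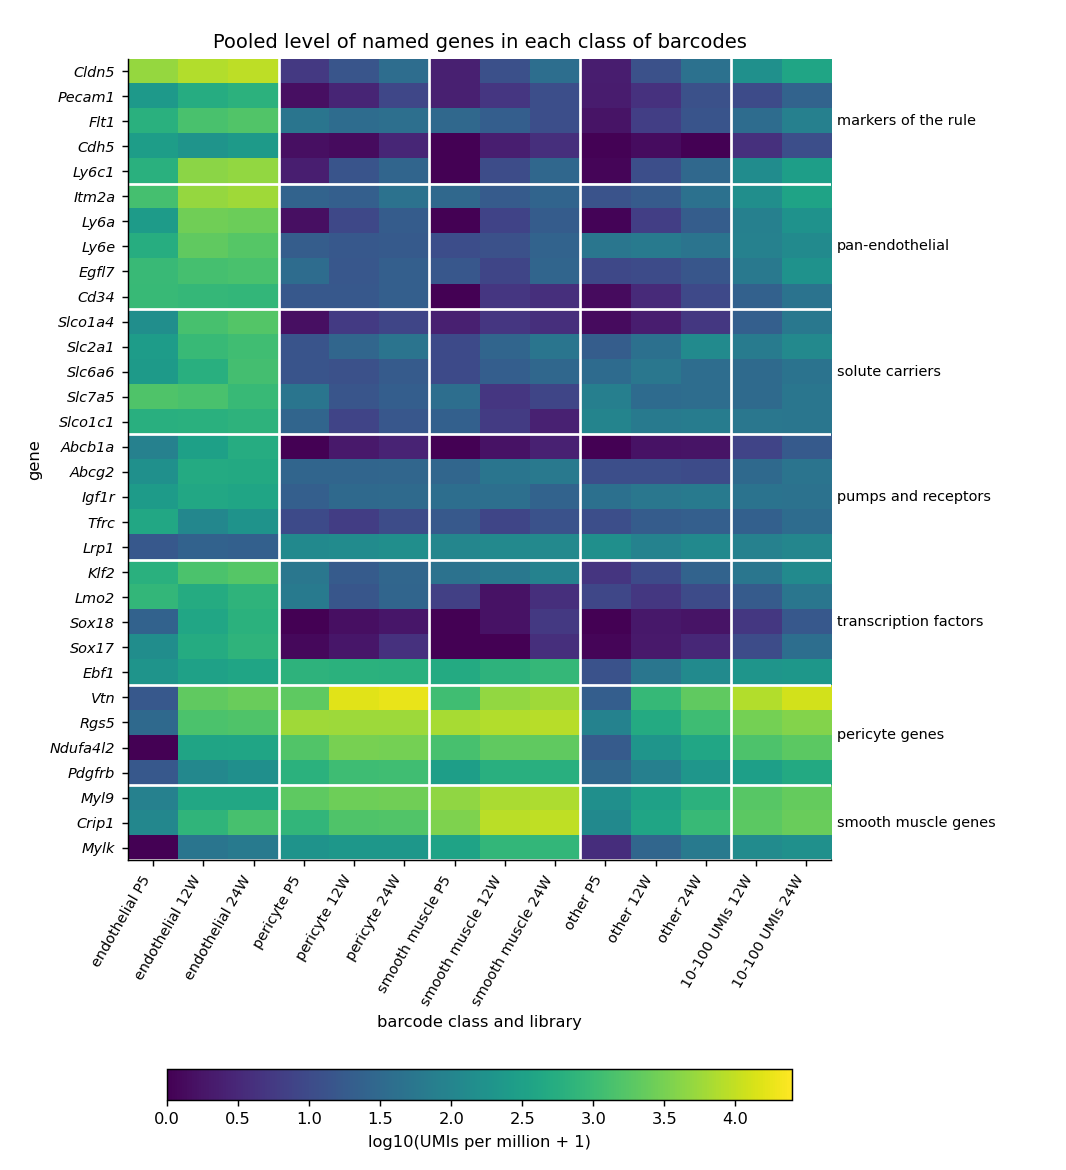
Level of 32 genes as log10(CPM + 1), by colour, in pooled endothelial, pericyte, smooth muscle and remaining barcodes of each library and in barcodes of 10 to 100 UMIs at 12W and 24W. Endothelial genes such as Itm2a and Ly6a are brighter in the endothelial columns than in the other columns of the same library, whereas pericyte genes such as Vtn and Rgs5 are bright in pericytes and also present in adult endothelial barcodes and in barcodes of few UMIs.

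Junction genes were higher than in pericytes for 10 of the 12 tested (of 14 listed; median 1.66) and higher than in smooth muscle for 8 of 11 (1.83). Ocln, which encodes the tight junction protein occludin, stood at 62.4, 267 and 295 CPM against 1.87, 8.21 and 11.1 CPM in pericytes (5.02 ± 0.27, edgeR adjusted p = 1.4e-11). Lsr, the angulin of tricellular junctions, stood at 289, 516 and 514 CPM against 1.34, 1.37 and 2.99 CPM (7.98 ± 0.29, edgeR adjusted p = 1.1e-13). Both were thus far above every pericyte library at each age. Jam2, a junctional adhesion molecule, differed by 4.72 ± 0.39 and its relative F11r by 2.09 ± 0.25. Scaffold and catenin genes that many cell types use differed less, with Tjp1 (ZO-1) at 0.79 ± 0.23, Ctnnb1 (beta-catenin) at 2.13 ± 0.22 and Ctnna1 (alpha-catenin) at 0.93 ± 0.21. The claudin gene Cldn12 (-0.66 ± 0.73) and the polarity gene Pard3 (0.05 ± 0.37) did not pass the test, and Cgn and Marveld2 had too few UMIs to be tested.

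Carriers of the barrier went one way. All 20 solute carrier genes were higher than in pericytes (median 5.38; 19 with DESeq2), and all 18 tested were higher than in smooth muscle (5.34). Slc2a1, the glucose transporter GLUT1 of the barrier, stood at 265, 925 and 1142 CPM against 13.1, 26.9 and 47.9 CPM in pericytes (4.82 ± 0.25, edgeR adjusted p = 8.1e-12). Slco1a4 stood at 148, 1310 and 1692 CPM against 0.534, 4.62 and 7.27 CPM (8.13 ± 0.30, edgeR adjusted p = 1.1e-13). In adult barcodes thinned to 1000 UMIs, Slc2a1 was detected in 59.0% of endothelial and 3.22% of pericyte barcodes, and Slco1a4 in 69.5% and 0.607%.

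Other nutrient carriers followed. Slc7a5, the light chain of the large neutral amino acid carrier LAT1, stood at 1514, 1360 and 915 CPM against 49.7, 13.3 and 19.2 CPM in pericytes (5.80 ± 0.32), while its heavy chain Slc3a2, which serves several carriers, was at 507, 685 and 614 CPM against 119, 173 and 183 CPM (2.04 ± 0.20). Slc6a6, the taurine transporter, stood at 250, 608 and 1194 CPM (5.60 ± 0.32). Mfsd2a, which takes up lysolipids that carry docosahexaenoic acid and restrains vesicle traffic, stood at 414, 344 and 233 CPM against 7.48, 2.74 and 4.28 CPM (6.24 ± 0.28, edgeR adjusted p = 1.4e-12). The monocarboxylate carrier Slc16a1 differed by 6.29 ± 0.30, the thyroid hormone carrier Slco1c1 by 5.58 ± 0.32 and the amino acid carrier Slc38a5 by 8.70 ± 0.43. The smallest difference was that of Slc22a8, an organic anion transporter, at 328, 459 and 495 CPM against 67.3, 370 and 382 CPM in pericytes (0.99 ± 0.27, edgeR adjusted p = 0.011), a call not made with DESeq2, and its thinned detection was 35.5% in endothelial and 30.9% in pericyte barcodes.

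Efflux pumps and receptors that carry cargo through the cell were higher for 9 of the 12 tested of 13 (median 2.72), and 1 was lower. Abcb1a, which encodes P-glycoprotein, stood at 85.8, 314 and 525 CPM against 0, 1.03 and 1.71 CPM in pericytes (8.47 ± 0.34, edgeR adjusted p = 2.6e-13). Abcg2, the breast cancer resistance protein, was at 164, 496 and 468 CPM against 25.9, 26.0 and 27.6 CPM (3.91 ± 0.29), and the pumps' genes were above pericytes in each library. Tfrc, the transferrin receptor that brings iron into the brain, differed by 4.84 ± 0.28, the insulin-like growth factor receptor Igf1r by 3.78 ± 0.21, the lipoprotein receptor Lrp8 by 3.60 ± 0.29 and the neonatal Fc receptor Fcgrt by 1.14 ± 0.21, not called without 12W. Lrp1, a large scavenger receptor, was the member that went the other way, at 15.6, 23.6 and 21.7 CPM in endothelial cells and 119, 131 and 151 CPM in pericytes (-2.56 ± 0.31, edgeR adjusted p = 2.6e-06), and it was lower than in smooth muscle as well (-2.43). Ager did not pass the test (-2.26 ± 1.34).

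Caveolae, the flask-shaped membrane pits that barrier endothelium uses sparingly, gave a split picture. Of the 6 tested genes 4 were higher than in pericytes (median 1.13), while against smooth muscle none was higher and 4 were lower (-1.46). The coat gene Cav1 stood at 203, 233 and 306 CPM in endothelial cells, at 20.3, 20.5 and 14.5 CPM in pericytes (3.88 ± 0.26, edgeR adjusted p = 6.0e-10) and at 213, 361 and 321 CPM in smooth muscle (-0.31, not called). Cav2 differed from pericytes by 2.62 ± 0.29, and Ptrf, which encodes the coat protein cavin-1, by 1.53 ± 0.23. Plvap, the diaphragm protein of fenestrated vessels that barrier vessels shut off, had 1 UMI at P5 and 0 at 12W and 24W.

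Transcription factors of the endothelium were higher than in pericytes for 16 of 19 (median 4.66) and higher than in smooth muscle for 14 of 18 (4.10). Besides Sox18, the flow-responsive Klf2 stood at 617, 1451 and 1767 CPM against 54.2, 17.4 and 27.6 CPM in pericytes (5.47 ± 0.44, edgeR adjusted p = 8.8e-09). Klf4, its relative, stood at 117, 456 and 466 CPM against 6.95, 2.57 and 4.92 CPM (6.32 ± 0.43). Both genes are also sensitive to cell dissociation, and the immediate early genes are given below. The ETS factors Erg (7.57 ± 0.52) and Fli1 (3.81 ± 0.28), the cofactor Lmo2 (4.66 ± 0.28), Gata2 (8.21 ± 0.41) and Mecom (7.62 ± 0.44) were higher too. Epas1, which encodes the oxygen-sensitive factor HIF-2alpha, was at 304, 645 and 698 CPM against 295, 282 and 328 CPM, a difference of 0.93 ± 0.24 that was not called with DESeq2 or without 12W or 24W. Ebf1 was lower, at 187, 334 and 392 CPM against 692, 643 and 631 CPM in pericytes (-1.00 ± 0.25, edgeR adjusted p = 0.0052), and Ets2 (0.97 ± 0.35) and Tbx3 (0.12 ± 0.26) did not pass the test.

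Genes of the Wnt and beta-catenin barrier program were higher for 10 of 16 tested and lower for none (median 1.13), and against smooth muscle for 9 of 16, with 1 lower (0.93). Sox17, an endothelial transcription factor, stood at 140, 506 and 734 CPM against 0.267, 0.855 and 3.21 CPM (8.51 ± 0.32), and the forkhead factor Foxq1 at 429, 422 and 558 CPM against 96.4, 12.3 and 16.5 CPM (4.25 ± 0.43). Lef1, the DNA-binding partner of beta-catenin, stood at 101, 287 and 284 CPM against 17.6, 25.1 and 29.1 CPM (3.33 ± 0.25, edgeR adjusted p = 3.1e-09). The feedback inhibitor Nkd1 (3.76 ± 0.32) and Foxf2 (0.78 ± 0.20) were higher as well, Foxf2 not with DESeq2 or without 12W or 24W. Receptor genes were less distinct: the receptor Fzd4 (2.73 ± 0.50) and the co-receptor Reck (2.28 ± 0.39) were higher, whereas Lrp5 (0.07 ± 0.40), Lrp6 (0.90 ± 0.32), Adgra2 (0.00 ± 0.34) and Tspan12 (0.54 ± 0.26) did not pass the test. The target gene Axin2 did not pass either, at 15.6, 20.3 and 48.7 CPM against 70.3, 55.8 and 54.1 CPM (-0.77 ± 0.36).

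In the VEGF and angiopoietin pathway receptors were higher in endothelial cells and 3 ligand genes were lower than in at least 1 neighbouring cell type. Of 10 tested genes 5 were higher than in pericytes and 1 was lower (median 0.88), and against smooth muscle 3 were higher and 3 lower of 6 (-1.24). The co-receptor Nrp1 stood at 304, 250 and 208 CPM against 98.0, 72.2 and 57.9 CPM in pericytes (1.86 ± 0.21), and the receptor Flt4 differed by 6.53 ± 0.70. The ligand gene Pgf was lower, with 0, 6.75 and 18.9 CPM in endothelial cells, 71.9, 63.3 and 41.1 CPM in pericytes (-2.16 ± 0.49, edgeR adjusted p = 0.0026) and 197, 292 and 265 CPM in smooth muscle. Angpt1 and Angpt2, the ligands of Tek, were lower than in smooth muscle (-4.21 and -3.54) and did not pass the test against pericytes. Esm1, a gene of sprouting tip cells, was not detected in 793871 endothelial UMIs.

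Of 12 Notch genes, 6 were higher than in pericytes and 2 were lower (median 0.50). The ligand Dll4 stood at 62.4, 122 and 43.3 CPM against 7.48, 6.16 and 9.62 CPM (3.37 ± 0.40), Jag2 differed by 8.13 ± 0.94, and the modifier Mfng stood at 148, 223 and 143 CPM against 5.08, 7.53 and 10.5 CPM (4.57 ± 0.28). Among the target genes Hey1 was higher (2.36 ± 0.30) and both Hey2 (-2.72 ± 0.46) and Heyl (-2.88 ± 0.27) were lower, while Hes1 was at 289, 452 and 728 CPM against 397, 813 and 872 CPM and did not pass the test (-0.42 ± 0.22). The receptor Notch1 and the ligand Jag1 did not pass it either (-0.43 ± 0.23 and -0.24 ± 0.28), and Notch4 was higher (1.10 ± 0.35). Without P5 both Hes1 (-0.38) and Notch1 (-0.57) were called lower.

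TGF-beta and BMP genes were higher for 9 of 15 tested of 16 and lower for 2 (median 1.93). The receptor Acvrl1 (ALK1) stood at 156, 405 and 441 CPM against 18.4, 24.1 and 20.1 CPM in pericytes (4.09 ± 0.27, edgeR adjusted p = 3.7e-10). The target gene Id1 stood at 507, 1050 and 1250 CPM against 79.1, 84.1 and 90.7 CPM (3.51 ± 0.26), and Id3 at 882, 1580 and 1979 CPM against 487, 251 and 343 CPM (2.15 ± 0.31). The endothelial libraries were above the pericyte libraries in all 3 genes. The receptor Bmpr1a (-1.32 ± 0.45) and the ligand Bmp4 (-2.48 ± 0.36) were lower, and Tgfb1 did not pass the test (-0.08 ± 0.21). With DESeq2 8 genes were higher and 1 lower, and without the barcodes of more than 5 pericyte UMIs 9 and 1.

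Signals that endothelial cells send out were higher than in pericytes for 13 of 16 tested of 20 (median 4.00). Spock2, a matrix proteoglycan gene, stood at 1233, 1185 and 1454 CPM against 13.4, 6.33 and 26.3 CPM (6.67 ± 0.32). Pdgfb, the ligand that recruits pericytes, stood at 125, 81.0 and 119 CPM against 8.82, 5.99 and 4.28 CPM (4.23 ± 0.33), and the gene of its receptor, Pdgfrb, at 15.6, 111 and 154 CPM against 654, 1070 and 1144 CPM (-3.24 ± 0.30). Ligand and receptor thus lay on opposite sides of the comparison. Edn1, the vasoconstrictor endothelin-1, differed by 8.30 ± 0.41, the chemokine Cxcl12 by 2.23 ± 0.29, and Nos3, the endothelial nitric oxide synthase, by 4.52 ± 0.46. Igf2 was lower, with 0, 0 and 8.12 CPM against 147, 19.5 and 43.2 CPM (-3.66 ± 0.62). Igfbp7, a frequent marker of brain vessels, did not separate the cell types, at 2708, 2882 and 2644 CPM against 2933, 5048 and 4841 CPM (-0.50 ± 0.22, edgeR adjusted p = 0.13). Without P5 it was called lower (-0.71).

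The basement membrane is made by both cell types, and its genes were mixed: 4 of 14 were higher than in pericytes, 5 lower and 5 neither (median -0.09). Sparc, a collagen-binding protein, stood at 4362, 1910 and 1432 CPM against 1832, 1243 and 1108 CPM (0.84 ± 0.22; not called without 12W or without the deepest P5 barcodes), and Hspg2 (perlecan) and Agrn (agrin) were higher by 1.26 ± 0.27 and 0.77 ± 0.22, Agrn not without 12W or without 24W. The laminin chain Lamc1 was lower, at 172, 47.3 and 43.3 CPM against 224, 196 and 180 CPM (-1.38 ± 0.28), as were Lamb1 (-1.40 ± 0.38) and Nid1 (-1.05 ± 0.23). With DESeq2 3 genes were higher, without Agrn, and 2 lower. The 2 main collagen chains did not pass the test, Col4a1 at -0.29 ± 0.23 and Col4a2 at -0.02 ± 0.23. Col4a5 was at 0 UMIs in endothelial cells.

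Adhesion molecules for leukocytes were sparse. Of 14 genes 10 could be tested, 5 of them higher than in pericytes and 2 lower (median 1.08). Sele, Selp, Selplg and Ackr1 had 0 UMIs in all endothelial barcodes, where the floor of 3 UMIs is 3.78 CPM. Cd93, a receptor of endothelial adhesion, stood at 499, 149 and 130 CPM against 0.534, 1.03 and 2.14 CPM (7.43 ± 0.40), and Icam1 at 15.6, 37.1 and 13.5 CPM (4.67 ± 0.76). Vcam1 was at 31.2, 30.4 and 21.7 CPM and did not pass the test (1.17 ± 0.46), though it did without P5 (1.70). The receptors Tnfrsf1a and Ackr3 were lower (-1.03 ± 0.24 and -1.14 ± 0.25), Ackr3 not without 12W.

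**Figure D3:**
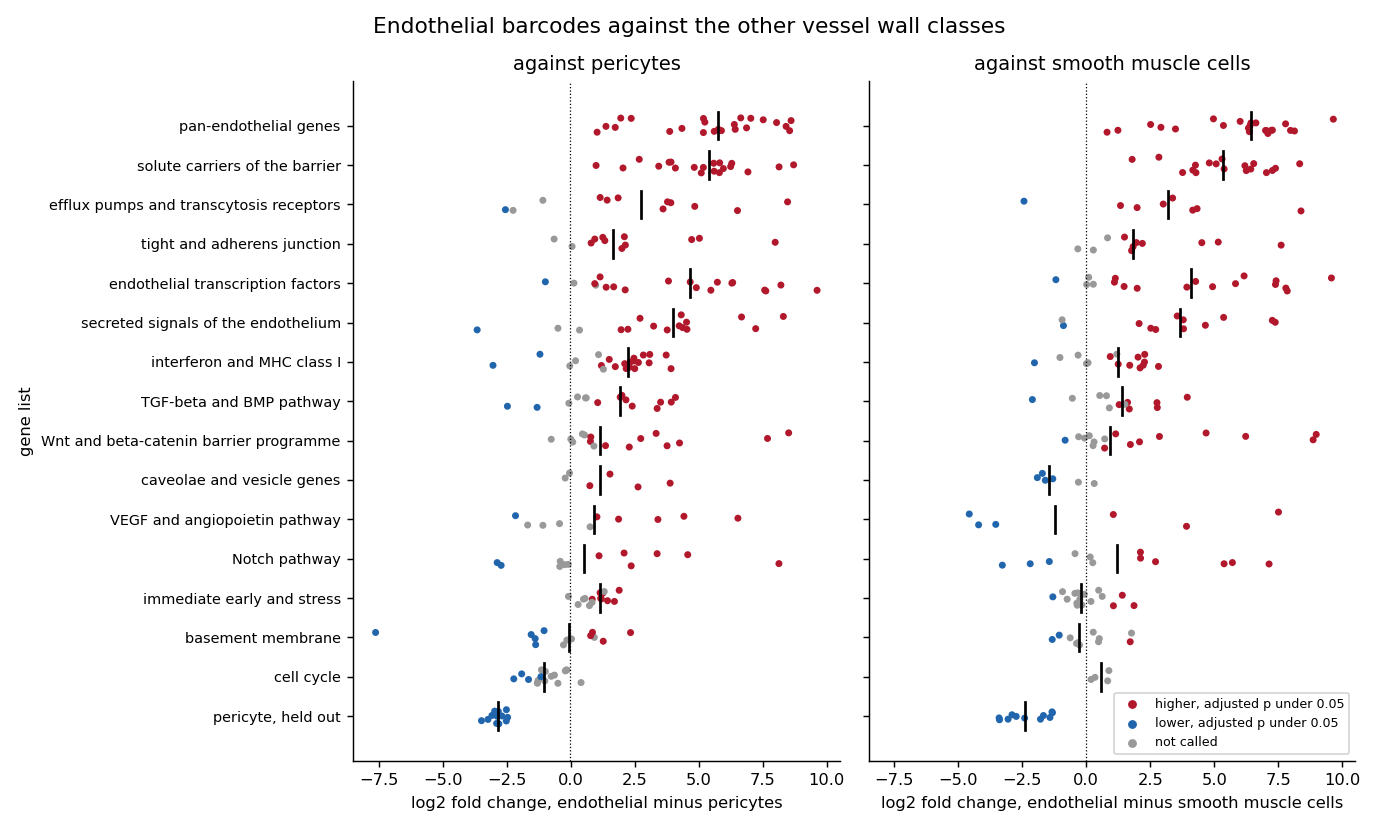
Log2 difference of each tested gene in 16 gene groups, endothelial minus pericyte (left) and endothelial minus smooth muscle (right), coloured by call, with the group median as a black bar and the median over all genes tested as a dotted line. Solute carriers, pan-endothelial genes and transcription factors lie to the right on both sides, caveolar genes lie to the right against pericytes and to the left against smooth muscle, and basement membrane genes lie around 0 against pericytes.

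Interferon-induced and MHC class I genes were higher than in pericytes for 16 of 22 tested of 24 (median 2.23), and higher than in smooth muscle for 9 of 15 (1.25). B2m, the invariant chain of MHC class I, stood at 679, 2012 and 1979 CPM against 318, 510 and 578 CPM in pericytes (1.74 ± 0.24, edgeR adjusted p = 1.2e-05), and the heavy chain H2-D1 at 437, 1040 and 1486 CPM against 45.1, 368 and 477 CPM (2.16 ± 0.27). Irf7, a regulator of the interferon response, stood at 15.6, 125 and 135 CPM against 4.27, 8.89 and 9.84 CPM (3.72 ± 0.34), and the interferon-induced Isg15 at 31.2, 257 and 225 CPM against 25.4, 28.6 and 24.8 CPM (2.83 ± 0.35). The interferon-induced membrane proteins did not follow the group: Ifitm1 was lower, at 0, 115 and 165 CPM against 348, 1026 and 1059 CPM (-3.04 ± 0.33), Ifitm2 was lower (-1.21 ± 0.34), and Ifitm3, at 265, 1310 and 1248 CPM against 927, 869 and 955 CPM, did not pass the test (-0.04 ± 0.34) but was called higher without P5 (0.62).

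Immediate early and stress genes, which dissociation can induce, were higher than in pericytes for 8 of 15 tested of 17 (median 1.14), but against smooth muscle for 3 of 16, with 1 lower (-0.21). Jun stood at 242, 466 and 739 CPM against 159, 129 and 176 CPM in pericytes (1.70 ± 0.26) and Nfkbia at 195, 614 and 633 CPM against 89.2, 156 and 156 CPM (1.89 ± 0.23). The count was 4 with DESeq2 and 13 without P5. No cell cycle gene was higher in endothelial cells, 4 of 18 were lower (Rrm2, Ube2c, Tpx2 and Cdc20) and 14 did not pass the test (median -1.06), while the lower count was 1 with DESeq2 and 9 without P5. The summed level of the cell cycle genes was 1670, 493 and 241 CPM at P5, 12W and 24W, and the proliferation gene Mki67 had 3, 2 and 1 UMIs.

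All 12 pericyte genes that did not enter the pericyte rule were lower in endothelial cells (median -2.86; 9 of 12 with DESeq2), but adult endothelial barcodes carried their RNA. Their summed level was 117, 3115 and 3210 CPM in endothelial barcodes and 11248, 16737 and 16601 CPM in pericytes, and barcodes of 10 to 100 UMIs, which hold mostly free RNA, carried 7606 CPM at 12W and 10278 CPM at 24W. Vtn, which encodes vitronectin, stood at 15.6, 2079 and 2498 CPM in endothelial barcodes, and Rgs5, a regulator of G protein signalling, at 31.2, 1421 and 1527 CPM. At 12W and 24W both were thus lower than in barcodes of few UMIs, where Vtn stood at 7742 and 12580 CPM and Rgs5 at 2999 and 3873 CPM. Thinned to 1000 UMIs, Vtn was detected in 66.0% of adult endothelial and 98.8% of adult pericyte barcodes. By the pericyte genes alone, 0, 14 and 23 of the endothelial barcodes also met the pericyte thresholds, which is 15.4% at 12W and 21.1% at 24W. Without the barcodes of more than 5 pericyte UMIs, all 12 genes were still lower, which this removal favours. The counts of higher genes given above were then 23 of 23 for pan-endothelial genes and 20 for solute carriers. They fell to 9 of 12 for junction genes, 9 of 16 for Wnt genes and 15 of 18 for transcription factors. Notch genes fell to 5 of 11 and interferon and MHC genes to 14 of 22, and no group above rose.

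Genes of other cells the gate could hold were compared next. Of the tested genes of fibroblasts (4 of 8), astrocytes and stem cells (10 of 10), oligodendrocyte lineage (6 of 8) and neurons (8 of 9), none was higher than in pericytes, and 3, 2, 5 and 3 were lower. With DESeq2 3, 1, 2 and 2 were lower, and without the barcodes of more than 5 pericyte UMIs 3, 4, 3 and 3. Without P5 1 astrocyte gene was called higher. Against smooth muscle 2 of 9 tested astrocyte and stem cell genes were higher and 1 lower, and none of the other 3 groups had a higher gene. Microglial genes summed to 0, 13.5 and 10.8 CPM and none could be tested. Of the smooth muscle genes outside the rule, 5 of 8 were lower than in pericytes and Synpo2 was higher (2.71 ± 0.64). The Synpo2 call was not made without 24W or without the barcodes of more than 5 pericyte UMIs. The 4 tested globin genes were higher, and without the 6 barcodes of more than 50 globin UMIs none was. Nes, whose regulatory elements drive the reporter, stood at 109, 125 and 127 CPM in endothelial cells, 88.2, 79.9 and 110 CPM in pericytes and 80.7, 90.7 and 110 CPM in smooth muscle. The difference from pericytes was 0.50 ± 0.23 and did not pass the test (edgeR adjusted p = 0.14), and without P5 it was called higher (0.55). Barcodes of 10 to 100 UMIs held Nes at 37.5 CPM at 12W and 63.4 CPM at 24W, below the wall cell types at either age.

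Between 24W and 12W, 3531 genes had at least 20 UMIs in endothelial cells at either age, and 114 were at least 2-fold higher at 24W (3.23%) and 122 at 12W (3.46%). These counts come from 1 library each. On simulated sums with counting error alone, 93 of 3150 unchanged genes passed the same limit in either direction. Without the barcodes of more than 5 pericyte UMIs they were 58 and 55. Among the genes with the largest ratios were blood and sex-linked genes: Alas2 (0 and 44 UMIs at 12W and 24W), Hbb-bt (6 and 1424), Hba-a2 (61 and 4366), Hbb-bs (121 and 7411) and Hba-a1 (120 and 4760) lay in the few barcodes with globin, and Ddx3y (0 and 24) and Xist (252 and 0) differ by sex. The others at 24W were the efflux pump Abcc4 (2 and 31 UMIs), Slc26a10 (2 and 25), Cd248 (2 and 24) and Khk (2 and 20), and those at 12W were Cd74 (34 and 0), Gm5900 (40 and 3), Calb2 (24 and 2), Gpd1 (21 and 2), Ckap4 (20 and 2), Ppp1r14b (27 and 3), Fscn1 (39 and 5), Hebp1 (27 and 4) and Mmd2 (44 and 9). Markers of other cells were also higher at 12W: 2 of 2 compared neuronal genes, whose list summed to 280 and 75.8 CPM, and 3 of 7 astrocyte and stem cell genes, whereas without the barcodes of more than 5 pericyte UMIs 0 of 4 were higher at 12W and 2 at 24W. Their part in these ratios was not tested. Of the Cd74 UMIs at 12W, 97.1% were from 1 barcode, and Cd248 and Gpd1 were at 0 and 3 and at 0 and 1 UMIs without the barcodes of more than 5 pericyte UMIs.

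Of the endothelial groups, Edn1 was detected in 17 barcodes at 12W and 40 at 24W, and its level was 111 and 365 CPM, a ratio of 3.28 (exact conditional 95% interval 2.23 to 4.96). Of the list of signals that endothelial cells send out, 2 of 11 compared were at least 2-fold higher at 24W and 0 at 12W. Pericytes of the same libraries gave 6 and 1 of 13 for this list, and 357 and 112 of 11419 over all genes. Hspa1a, a heat shock gene that dissociation can induce, was at 378 and 1042 CPM (2.76, 2.23 to 3.43), but without the barcodes of more than 5 pericyte UMIs no immediate early or stress gene reached 2-fold at 24W and 1 did at 12W. Cyr61, a secreted matrix protein, was 5.44-fold higher at 24W (2.68 to 12.5) and Tbx3 2.33-fold (1.42 to 3.98). Higher at 12W were the Notch ligand Dll4, at 122 and 43.3 CPM (24W to 12W ratio 0.36, 0.18 to 0.66), the vasodilator peptide Adm (0.18, 0.07 to 0.40) and the insulin receptor Insr (0.43, 0.20 to 0.89), of which Adm and Insr were not counted without the barcodes of more than 5 pericyte UMIs. None of the 18 solute carriers, 10 junction genes or 19 interferon and MHC genes compared reached 2-fold in either direction, where 3.23% and 3.46% of all genes did, so lists of this size would hold few by that share, and some did under alternatives. With the median ratio scaled to 0, 2 solute carriers did at 24W, without the barcodes with globin 1 solute carrier and 1 interferon or MHC gene did at 24W, and without the barcodes of more than 5 pericyte UMIs 1 interferon or MHC gene did at 12W.

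Against P5, which both adult ages share, 1173 of 5211 genes were at least 2-fold higher at both 12W and 24W (22.5%) and 144 were at least 2-fold higher at P5 (2.76%). Pericytes of the same libraries gave 14.3% and 7.54% of 12422 genes. The median log2 ratio over genes in endothelial cells was 0.23 for 12W to P5 and 0.17 for 24W to P5, and scaled to a median of 0 the counts were 989 and 227. Since P5 has 12 barcodes, each ratio was also taken without the 2 deepest, which changed the P5 count to 71 and is given below beside the groups whose counts it changed.

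The 10 genes named for the comparison with P5 on the adult side had 0 UMIs at P5, so only bounds can be given and they are not ranked against genes with UMIs at P5. These bounds were computed against the floor of 3 UMIs and leave out counting error. Ndufa4l2 was at least 15.6-fold and 16.4-fold higher at 12W and 24W, Degs2 at least 10.5-fold and 13.5-fold and Kcnj8 at least 10.4-fold and 9.94-fold, and the others were Paqr5, Ndrg1, Cox4i2, Gper1, Ptprr, P2ry14 and Ifitm1. Several of them are pericyte genes, and part of their UMIs lay in the barcodes of more than 5 pericyte UMIs: without these, Ndufa4l2 had 25 and 22 of its 108 and 142 UMIs, Kcnj8 15 and 15 of 72 and 86, and Cox4i2 13 and 12 of 66 and 69. Kcnj8 is itself 1 of the 5 genes that set which barcodes were removed. Degs2 (46 and 51 of 73 and 117), Paqr5 (49 and 40 of 70 and 85) and Ptprr (33 and 32 of 42 and 70) kept more. All 9 compared genes of the held-out pericyte list passed the fold towards the adult ages, and 5 of 5 without these barcodes.

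The 10 genes furthest above the adult ages at P5 were Igfbp4 (62, 1 and 1 UMIs at P5, 12W and 24W), Birc5 (26, 1 and 0), Olig1 (23, 1 and 2), Ube2c (22, 2 and 2), Mest (21, 2 and 1), Hist1h2ap (31, 3 and 1), Slc1a4 (33, 3 and 4), Ncan (39, 7 and 0), Apln (31, 6 and 0) and Aplnr (43, 9 and 0). Igfbp4 binds insulin-like growth factors, Mest is an imprinted gene of growing tissue, and Apln and Aplnr are a peptide and its receptor in angiogenesis. Birc5, Ube2c and Hist1h2ap belong to dividing cells, and Olig1 and Ncan mark glial cells. Without the 2 deepest barcodes P5 held 29 UMIs of Igfbp4, 16 of Apln, 7 of Aplnr, 2 of Ube2c, 2 of Hist1h2ap and 0 of Birc5, so that the cell cycle genes came almost entirely from these barcodes.

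By group, interferon and MHC class I genes leaned to the adult ages. Of 21 compared, 20 were at least 2-fold higher at both adult ages and none at P5, and the count was 18 of 19 without the barcodes of more than 5 pericyte UMIs, 20 of 21 without the deepest barcodes and 19 of 21 with the median scaled to 0. Pericytes had 12 of 22. B2m had 87, 596 and 731 UMIs in endothelial cells, a ratio to P5 of 2.96 at 12W (2.36 to 3.75) and 2.91 at 24W (2.33 to 3.68). Irf7, Ifit1 and Ifit3 had 2, 0 and 0 UMIs at P5 and between 27 and 50 UMIs at either adult age. Immediate early and stress genes gave 10 of 14 towards the adult ages, led by Hspb1, which had 5, 440 and 541 UMIs (38.1-fold, 16.2 to 118, and 37.5-fold, 16.0 to 116), against 6 of 16 in pericytes with 1 towards P5.

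The basement membrane went the other way. Of 9 compared, 6 were at least 2-fold higher at P5 and none at the adult ages, namely Col4a1, Col4a2, Lamc1, Nid1, Sparc and Agrn, against 4 without the deepest barcodes and 6 with the median scaled to 0. Sparc, at 4362, 1910 and 1432 CPM, had a ratio to P5 of 0.44 at 12W (0.39 to 0.49) and 0.33 at 24W. Pericytes gave 6 of 14 higher at P5, with 1 higher at the adult ages.

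Barrier carriers did not move as one. Of 19 solute carriers compared, 5 were at least 2-fold higher at both adult ages (Slc2a1, Slco1a4, Slc16a4, Slc6a6 and Slc19a3), 2 were higher at P5 (Slc16a1 and Slc38a5; 1 without the deepest barcodes), and 12 were neither. Slc2a1 had ratios to P5 of 3.49 at 12W (2.43 to 5.14) and 4.30 at 24W, and Slco1a4 of 8.83 (5.58 to 14.8) and 11.4. Slc16a1 was at 679, 284 and 290 CPM (0.42 and 0.43). Both directions also occurred among pumps and receptors, with Abcb1a (3.66 and 6.12), Abcg2 and Fcgrt higher at the adult ages and Tfrc, at 429, 108 and 184 CPM (0.25 and 0.43), and Lrp8 higher at P5, 1 of these 2 without the deepest barcodes. Of the 24 pan-endothelial genes, 10 were higher at the adult ages, Itm2a with ratios of 4.02 (3.42 to 4.75) and 4.56 among them, and Kdr (0.42 and 0.49) and Ecscr were higher at P5, against 9 and 1 without the deepest barcodes. Transcription factors gave 5 of 18 towards the adult ages, Sox18, Gata2, Klf2, Klf4 and Epas1, and none towards P5, against 4 with the median scaled to 0, 4 without the deepest barcodes and 8 of 17 without the barcodes of more than 5 pericyte UMIs. The shares of carriers and transcription factors towards the adult ages were near the 22.5% over all genes compared.

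**Figure D4:**
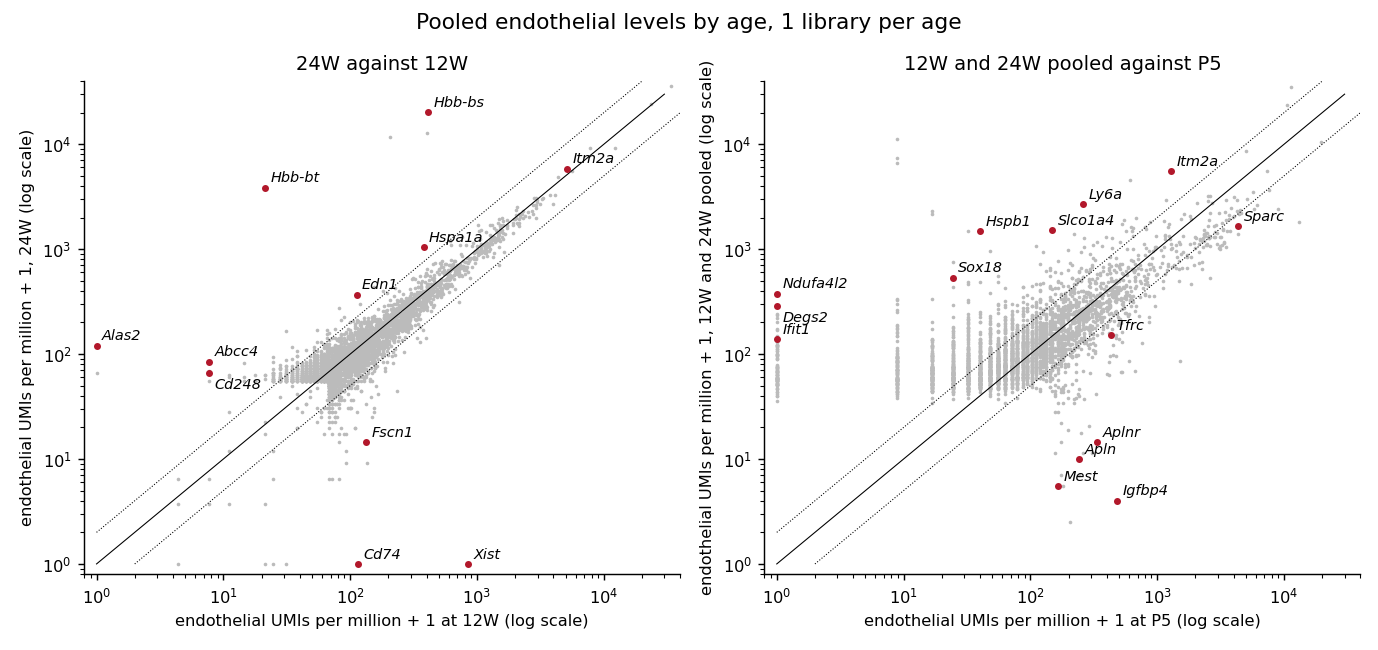
Endothelial level of each gene as pooled CPM on log axes, 24W against 12W (left) and 12W and 24W pooled against P5 (right), with dotted lines at 2-fold and named genes labelled. Globin genes lie far above the upper line on the left, and interferon and pericyte genes lie above it on the right while Igfbp4 and Aplnr lie below.

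Along the vascular tree, endothelial cells grade from arteries over capillaries to veins, with markers for each end. Barcodes were called arterial-leaning with at least 2 UMIs of Gkn3, Bmx, Sema3g, Hey1, Vegfc and Efnb2 and 0 of Nr2f2, Slc38a5, Vwf, Lcn2, Vcam1 and Tmem252, and venous-leaning in the reverse case. This gave 5 arterial-leaning and 11 venous-leaning barcodes of 91 at 12W (5.49%, exact interval 1.81 to 12.4, and 12.1%, 6.19 to 20.6) and 13 and 26 of 109 at 24W (11.9%, 6.51 to 19.5, and 23.9%, 16.2 to 33.0), while P5 had 0 and 1 of 12. These are ranges of a count, not cell types: 5 and 9 barcodes had 1 arterial and 0 venous UMIs at 12W and 24W, 26 and 17 had 1 venous and 0 arterial UMIs, 4 and 5 had at least 2 UMIs of both lists, and 29 and 34 had none of either. At P5, where barcodes were deeper, 4 of the 12 had at least 2 UMIs of both lists and so could not be called, and 1 had none of either.

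Genes that did not enter these limits separated the ends. Pooled over 12W and 24W, Stmn2 stood at 658 CPM in arterial-leaning barcodes and 7.20 CPM in venous-leaning barcodes (38 and 1 UMIs; ratio 91.5, exact conditional interval 15.5 to 3706), and it was detected in 12 of the 18 arterial-leaning and 1 of the 37 venous-leaning barcodes. Alpl, which encodes alkaline phosphatase, was at 399 and 14.4 CPM (23 and 2 UMIs; 27.7, 6.84 to 242), Clu at 607 and 93.6 CPM (6.48, 3.34 to 13.4), Tgfb2 at 381 and 64.8 CPM (5.88, 2.60 to 14.5) and Tm4sf1 at 2097 and 511 CPM (4.10, 3.03 to 5.58). Higher on the venous side were Tmsb10, which binds actin monomers, at 208 and 3578 CPM (0.06, 0.03 to 0.10), Car4, a carbonic anhydrase on the surface of capillary endothelium, at 156 and 2830 CPM (0.06, 0.03 to 0.11), Slc22a8 at 86.6 and 598 CPM (0.14, 0.05 to 0.35), and Slc7a5 at 520 and 1310 CPM (0.40, 0.26 to 0.59).

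The venous-leaning barcodes thus carried the capillary genes as well. The summed level of the 8 capillary genes held out was 2803 and 2875 CPM in arterial-leaning barcodes at 12W and 24W, 4896 and 8140 CPM in venous-leaning and 5752 and 5058 CPM in the remaining barcodes. In pericytes these genes summed to 2471 and 2291 CPM. Car4 was not called higher than in pericytes, though it was with no filter on low counts (0.65), without 12W (1.08) and without 24W (0.76). Of the venous genes, Ackr1, Selp, Lrg1 and Lcn2 were at 0 UMIs in all adult members, where the floor of 3 UMIs is 10.1 CPM at 12W and 8.12 CPM at 24W, and Vwf had 10 UMIs in venous-leaning barcodes. Slc38a5 gave 70 of the UMIs of the venous limit. Cxcl12 (0.93, 0.69 to 1.23), Sgms1 (1.11, 0.77 to 1.58), Gja4 (1.32, 0.57 to 2.90) and Mgp (0.62, 0.27 to 1.26) had intervals that include equal levels. Smooth muscle RNA moved with the arterial end: the 9 smooth muscle genes held out summed to 2242 and 3118 CPM in arterial-leaning, 696 and 1419 CPM in venous-leaning and 1412 and 1990 CPM in the remaining barcodes, and its part in the arterial levels was not tested. Barcodes of more than 5 pericyte UMIs numbered 0 and 6 among arterial-leaning and 4 and 16 among venous-leaning. Their part in the capillary levels was not tested.

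**Figure D5:**
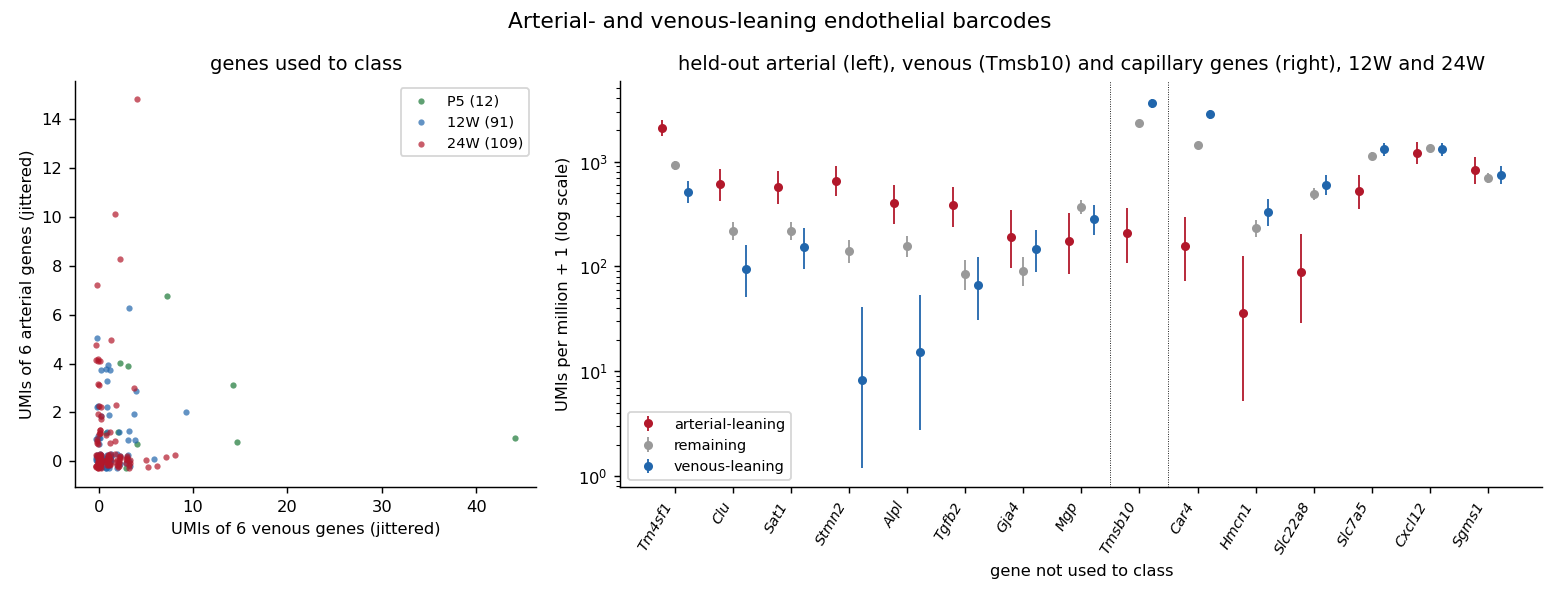
Left, UMIs of the 6 arterial genes (vertical axis) against UMIs of the 6 venous genes (horizontal axis) in each endothelial barcode at P5, 12W and 24W, with points jittered. Right, 12W and 24W pooled CPM + 1 on a log axis of genes that did not enter the limits, with exact Poisson 95% intervals for counting error, in arterial-leaning, remaining and venous-leaning barcodes; Stmn2 and Alpl are highest at the arterial end and Tmsb10 and Car4 at the venous end, with the remaining barcodes between.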

How the data were processed

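The single-cell RNA-seq counts of the P5, 12W and 24W libraries are raw UMIs per gene and barcode, as the authors deposited them; the submitters' processing notes name Cell Ranger 2.2.0, Seurat 4.1.0 and mm10. The tables list 27998 genes. The scATAC-seq, bulk RNA-seq, ChIP-seq and ATAC-seq values were not used here.

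A barcode was kept with 1000 or more UMIs, 500 or more genes detected and no more than 10% of UMIs from mitochondrial genes, out of library totals of 67543410, 21972852 and 11353643 UMIs at P5, 12W and 24W. The P5 table lists 14129 barcodes, all of at least 1495 UMIs, so free RNA could be read only at 12W and 24W, from barcodes of 10 to 100 UMIs. Pericytes needed at least 8 summed UMIs of Vtn, Kcnj8, Abcc9, Higd1b and Atp13a5, with 3 detected, and smooth muscle cells at least 8 of Acta2, Tagln and Myh11, with 2 detected, both with at most 5 endothelial UMIs (pericytes also with at most 5 smooth muscle UMIs). UMIs summed per library and class were tested with edgeR 4.0.16 in R 4.3.3 (TMM, filterByExpr, quasi-likelihood F test, library as a block, SE as the log2 difference over the square root of F). DESeq2 1.42.0 was an alternative. Genes of the class rules were fitted and adjusted with the rest and are in the counts over all genes, but were described without a test. Doublets were called with scrublet in scanpy 1.11.5 and kept. CPM carry exact Poisson, ratios exact conditional binomial and shares Clopper-Pearson intervals at 95%, for counting error only. Detection shares were compared after thinning each barcode to 1000 UMIs. Python 3.11.15, numpy 2.4.6, scipy 1.17.1 and pandas 2.3.3 were used.

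On simulated endothelial and pericyte sums (10414 genes) edgeR recovered 41% of genes changed 2-fold and 100% of those changed 4-fold, with 2 false calls. These sums had the same set dispersion for all genes and no difference of the contrast between ages. Changed genes were drawn from those with at least 20 expected endothelial UMIs at 12W and 24W, so recovery of sparser genes was not measured. On simulated 24W and 12W sums the 2-fold limit counted 98% of 100 genes changed 3-fold and 2% of 100 changed 1.5-fold, drawn from 2696 genes. It also counted 93 of the 3150 unchanged genes that reached 20 UMIs in the simulation. These sums held counting error only, with no variation between cells or libraries.

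The members and gene lists were chosen with earlier results of these data known. Genes named are the 5 of the rule, up to 5 per list with most adult endothelial UMIs and those that went against their list, the 15 with the largest fitted difference in each direction from pericytes (at least 50 UMIs on the higher side at 12W and 24W), the 10 with the largest ratios in each direction between ages (genes at 0 first), and further list members picked with their values known.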

Additional observations from a re-analysis of the deposited data

How the results depend on the processing

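The limits are 12 endothelial barcodes at P5, 1 library per age, and libraries whose sex differs, so a difference between ages may be one of library, animal or sex, and genes under 20 UMIs were not compared between ages. The removal of barcodes rich in globin and of those over 20000 UMIs was chosen after seeing the data. No paired analysis was possible because each age has 1 scRNA-seq sample, so its replicate number pairs nothing between ages. Cell types were compared within libraries, with library as a block.

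Against pericytes the counts were 1185 higher and 1008 lower. Without the library block they were 671 and 375, and with DESeq2 the lower count was 610 (higher 858). Leaving out 1 library at a time gave 683 to 1620 higher and 665 to 1466 lower, with 683 without 24W, 714 without 12W and 1620 without P5. Against smooth muscle (751 and 801) the lower count was 434 without the block, 522 with DESeq2 and 1342 with no filter on low counts, and leaving out 1 library gave 466 to 1235 higher and 472 to 1217 lower. The cause of these shifts was not tested.

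Between ages, removing barcodes of more than 5 pericyte UMIs gave 58 genes higher at 24W, 55 at 12W and 668 at both adult ages over P5. Removing scrublet doublets gave 78 higher at 12W. A limit of 1.5-fold gave 377 at 24W, 421 at 12W and 307 at P5, and a minimum of 50 UMIs gave 21, 19, 512 at the adult ages and 79 at P5. Without the 2 deepest barcodes 71 were higher at P5, and with the median ratio scaled to 0, 227. Endothelial shares were 1.20% and 2.22% at 12W and 24W without the pericyte-carrying barcodes and 2.41% and 5.72% at a minimum of 2000 UMIs.

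Of the values of named genes against pericytes under the alternatives, 1992 kept their call or its absence, 101 lost the call and 41 gained it. Values without a call in either fit could change sign and are among the 1992. Of the values called in the main fit 2 turned: Hbb-bs (-0.49) and Hbb-bt (-0.56) without the 6 barcodes of more than 50 globin UMIs. The fit without the block accounted for 40 of the losses.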
